A study of Mus musculus with 15 samples.

Results

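The insulin signalling genes described here are the insulin receptor Insr, the receptor substrates Irs1 and Irs2, the phosphoinositide 3-kinase subunit Pik3r1, the kinases Akt1 and Akt2 and the transcription factor Foxo1, and Pdk4 was taken with them. Members were chosen by symbol: every probe set whose annotation names one of these 8 genes was taken, which gave 21 of the 45101 probe sets of the array, for 8 of the 18194 genes that have a probe set of their own. Of the 21 probe sets, 18 passed the filter on low signal and were tested, with at least 1 for each of the 8 genes. The 3 that did not pass belong to Insr, Akt1 and Foxo1. Where a gene had several tested probe sets, the one with the highest mean signal stands for it and the others are given beside it.

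Livers were taken from 15 male C57BL/6J mice, 5 for each diet, after 12 weeks of feeding from 8 weeks of age, and each RNA was hybridised to 1 Affymetrix mouse genome GeneChip. CL+CX mice ate the CL diet with the xanthophyll β-cryptoxanthin at 0.003% by the treatment text of the labels, where the titles of the same samples give 0.005%. CL mice ate the CL diet, a mixture rich in fat and cholesterol that gives these mice a liver disease resembling nonalcoholic steatohepatitis (NASH); it held CRF-1 chow at 38.23% and cocoa butter at 60%, with cholesterol at 1.25% and sodium cholate at 0.5%. NC mice ate the standard CRF-1 chow alone. Food was freely available, and neither the hour of killing nor any fast before it is given in the sources used here. Signals were brought to a common 75th percentile of 54.1 on every array, which put the array medians at 11.3 to 13.5. They are linear signals with no unit, so the level of 1 gene is not set against that of another, and signal was compared between probe sets only to choose which one of a gene stands for it and to say which are dim.

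Insulin binds its receptor on the hepatocyte, and the receptor phosphorylates IRS1 and IRS2, which recruit phosphoinositide 3-kinase through its regulatory subunit, the product of Pik3r1. The lipid that this kinase makes brings AKT1 and AKT2 to the membrane, where they are activated, and AKT phosphorylates FOXO1 and keeps it out of the nucleus. In the fasted liver FOXO1 is nuclear and drives genes of glucose production, Igfbp1 and Irs2. PDK4 phosphorylates the pyruvate dehydrogenase complex and so holds back the oxidation of glucose. Its transcript is known to be high in fasting and low when insulin acts, and FOXO1, PPARα and glucocorticoids are known to induce it.

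Promoter sequence was looked at for the genes on which insulin and FOXO1 are known to act. RefSeq promoters of GRCm38.p6 were at hand for 7 of the 8 genes, and Insr had no entry. In the 250 bases before each start, both strands were searched for GTAAACA (a forkhead site), CAAAACA (the core of the insulin response sequence, TGTTTTG on the other strand), CACGTG (an E-box), GGGCGG (a GC box) and AGGTCA (a nuclear receptor half-site). The last 120 bases before the start are shown for Irs1 and Irs2, which hold both an E-box and the insulin response core, and for Pdk4, which holds none of these 5 motifs. Capitals mark the motifs, and all 3 genes lie on the minus strand, at chr1:82291440-82291559 for Irs1, chr8:11008930-11009049 for Irs2 and chr6:5496279-5496398 for Pdk4.
Irs1: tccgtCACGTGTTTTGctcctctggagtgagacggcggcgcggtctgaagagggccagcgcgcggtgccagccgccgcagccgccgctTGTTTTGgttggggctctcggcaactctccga
Irs2: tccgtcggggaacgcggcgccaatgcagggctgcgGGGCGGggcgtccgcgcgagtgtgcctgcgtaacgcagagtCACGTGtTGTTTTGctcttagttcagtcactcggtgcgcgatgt
Pdk4: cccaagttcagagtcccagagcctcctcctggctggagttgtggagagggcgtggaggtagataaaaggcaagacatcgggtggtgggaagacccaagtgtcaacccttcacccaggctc
In Irs2 the E-box begins 44 bases before the start and the insulin response core, on the reverse strand, 37 bases before it, with 1 base between them. In Irs1 the E-box, 115 bases before the start, overlaps such a core by 2 bases, and the core occurs again 32 bases before the start. Of all 32851 promoters searched over the same length, 6.02% hold the E-box, 5.56% the insulin response core and 0.295% (97 promoters) both. No other pair of motifs was counted, and this pair is the one that Irs1 and Irs2 hold, so its share is no test. The forkhead site was found in 3.17% of all promoters and, among the members, only in 1 of the 2 Akt1 promoters, which also holds the half-site (14.0% of all promoters). GC boxes, in 32.7% of all promoters, were found for Irs1, Irs2, Pik3r1, Akt1, Akt2 and Foxo1. These matches describe letters, and no binding was measured.

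Differences between diets passed the test in 2 of the 8 genes, Insr and Pdk4. Insr was lowest in CL livers, at 0.57 of the NC level, and was 40.3% higher with β-cryptoxanthin, still under NC. Pdk4 was lowest in CL+CX livers, at 0.36 of the CL level and 0.17 of the NC level. The test was limma's, with the Benjamini-Hochberg adjustment made across all 20342 tested probe sets and 0.05 as its threshold. In CL against NC 1 of the 8 genes passed (Insr, lower), where 14% of the 10521 genes tested passed and 6.76% were lower. With β-cryptoxanthin, 2 passed in CL+CX against CL (Insr higher, Pdk4 lower), where 3.26% of all genes passed, 1.48% higher and 1.78% lower. Against NC, 2 passed in CL+CX livers (Insr and Pdk4, both lower), where 9.96% of all genes passed and 4.85% were lower. The median difference of the 8 genes on the log2 scale was -0.27 in CL against NC, 0.09 in CL+CX against CL and -0.11 in CL+CX against NC, where the medians over all genes tested were -0.08, 0.02 and -0.04. By probe set, 1, 2 and 3 of the 18 passed in these comparisons, against 12.2%, 3.13% and 9.79% of all probe sets. Groups did not overlap at 1 of the 18 probe sets in CL against NC (10.1% of all), 3 in CL+CX against CL (5.02%) and 5 in CL+CX against NC (14.1%). The 8 genes were chosen with earlier results of these data known, so the shares are given for scale and test nothing about the set. CL against NC shares its CL mice with CL+CX against CL, so the differences of a gene in both are given side by side and not taken as separate evidence. In whole liver, fewer cells of a type and less RNA per cell cannot be told apart.

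**Figure D1:**
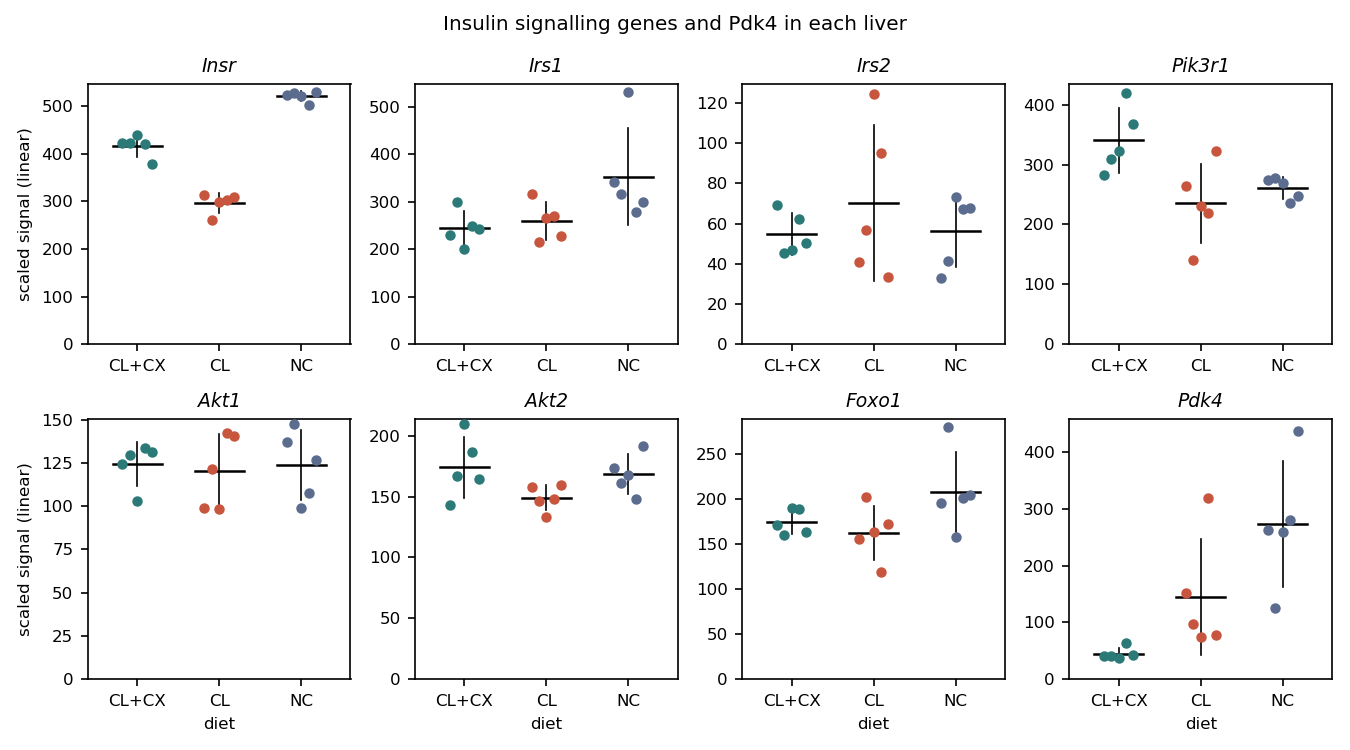
Scaled linear signal of each gene in each liver, at the probe set that stands for it, for CL+CX, CL and NC livers (points, 5 per diet; horizontal line, mean; vertical line, ±1 SD). Insr forms 3 separate bands, with CL lowest at 262 to 314, and Pdk4 is lowest in CL+CX, at 36.3 to 62.8.

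Insr encodes the receptor itself. Its signal was 422, 422, 439, 420.4 and 379 in CL+CX livers, 314, 262, 298, 302 and 309.6 in CL livers, and 523, 527, 522, 502 and 531 in NC livers. In these scaled signals the diets formed 3 bands with no overlap, CL lowest, CL+CX next and NC highest, and each neighbour in that order differed beyond its spread. The CL mean lay under the NC mean by a log2 difference of -0.81 (SE 0.0902, limma, adjusted p = 7.63e-05). CL+CX lay above CL by 0.49 (SE 0.0902, adjusted p = 0.0158) and below NC at -0.32 (SE 0.0902, adjusted p = 0.0341). Of the 10521 genes tested, 149 (1.42%) passed between CL and NC and again, in the opposite direction, between CL+CX and CL. Insr is the one member among them. In all, 343 genes passed between CL+CX and CL, so the return is common among those. Both comparisons use the same CL mice, which favours opposite signs. Livers within a diet varied little in Insr: the SD within diets was 0.08 on the log2 scale, and 0.0855% of the genes tested had a smaller one. The difference of CL from NC passed without any 1 mouse (-0.83 to -0.77). That of CL+CX from CL was lost without CL+CX replicate 3 (0.47, adjusted p = 0.0522), with no filter on low signal (adjusted p = 0.109) and in a fit of these diets alone (adjusted p = 0.0619). That of CL+CX from NC was lost without any 1 of NC replicates 1, 2, 3 and 5 and CL+CX replicates 1, 2, 4 and 5 (-0.33 to -0.29, adjusted p = 0.0577 to 0.0854). No filter (adjusted p = 0.141) and quantile normalization (-0.27, adjusted p = 0.108) also ended this call from NC. So did the signals as deposited, the replicate block and the β-actin covariate, as given below.

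A second tested Insr probe set (1450225_at) lay near the array median, at 8.50 to 16.7 in CL+CX, 11.2 to 18.6 in CL and 13.2 to 19.99 in NC livers. Its differences were -0.27 in CL+CX against CL, -0.16 for CL against NC and -0.44 for CL+CX against NC, none past the test (adjusted p = 0.506, 0.661 and 0.191), so it did not show the higher Insr of CL+CX against CL livers. With the mean of both probe sets in place of the brighter one, CL+CX against CL was 0.11 (adjusted p = 0.664). The third (1421380_at) ranged over 3.81 to 24.4 and lay below the array median in 10 of 15 livers, and was not tested.

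The 2 receptor substrates did not pass in any comparison. Irs1, the substrate best known in muscle and fat and also used by the liver, had signals of 231, 299, 201, 249.9 and 243 in CL+CX livers, 317, 216, 265, 269.7 and 227 in CL livers, and 341, 316, 530.4, 278 and 300.1 in NC livers. Its NC livers tended to lie higher, with 1 NC liver well above all others, and every pair of diets overlapped. The log2 difference of CL from NC was -0.42 (95% interval -0.79 to -0.06, adjusted p = 0.128), and -0.26 without NC replicate 3, the liver at 530.4. CL+CX differed from CL by -0.08 (-0.45 to 0.28, adjusted p = 0.844) and from NC by -0.50 (-0.87 to -0.14, adjusted p = 0.0763). The last difference passed with a stricter filter (adjusted p = 0.0402) and with a trend and a robust prior in limma (adjusted p = 0.0478).

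Irs2, the substrate whose transcript FOXO1 induces and insulin lowers, had signals of 69.2, 45.2, 47.0, 62.5 and 50.5 in CL+CX livers, 41.1, 56.7, 125, 95.2 and 33.4 in CL livers, and 32.8, 41.3, 73.0, 67.0 and 68.0 in NC livers. CL livers reached higher than those of both other diets, lower than CL+CX livers and nearly as low as NC livers. The differences of Irs2 were -0.20 for CL+CX against CL (-0.89 to 0.50), 0.21 for CL against NC (-0.49 to 0.90) and 0.01 for CL+CX against NC (-0.69 to 0.70), and each interval holds values of both signs. Its spread within diets was 0.57 on the log2 scale, with 93.0% of genes tested less variable, where Irs1 had 0.27 (55.1%).

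Pik3r1 makes the regulatory subunits that tie phosphoinositide 3-kinase to the substrates. At the probe set that stands for it (1438682_at) its signal was 282, 309.7, 323, 419.7 and 368 in CL+CX livers, 264, 140.5, 230.2, 219 and 322 in CL livers, and 275, 277, 269.6, 235 and 247 in NC livers. All 5 CL+CX livers lay above all 5 NC livers, and CL livers spread on both sides of NC. CL+CX differed from CL by 0.57 (95% interval 0.19 to 0.96, adjusted p = 0.0957) and from NC by 0.37 (-0.01 to 0.76, adjusted p = 0.200), and CL from NC by -0.20 (-0.58 to 0.19, adjusted p = 0.525). Without CL replicate 5, the CL liver at 322, CL+CX against CL passed at 0.70 (adjusted p = 0.0347).

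Another Pik3r1 probe set (1425514_at) read 126, 124, 152, 165 and 134 in CL+CX livers, 76.8, 50.1, 90.4, 58.7 and 167 in CL livers, and 76.9, 81.6, 56.2, 75.5 and 64.8 in NC livers. Here CL+CX was higher than NC by 0.98 (SE 0.25, adjusted p = 0.0218) with no overlap, and 4 of the 5 CL livers lay below every CL+CX liver while CL replicate 5 lay above them all. CL+CX against CL was 0.79 (0.26 to 1.31, adjusted p = 0.0942). The remaining pair of probe sets gave 0.23 (1425515_at, adjusted p = 0.556) and 0.31 (1451737_at, adjusted p = 0.578) in CL+CX against CL. For CL+CX against NC they gave -0.02 (adjusted p = 0.972) and 0.74 (adjusted p = 0.0997). The gene has transcripts with different starts, and which of them each probe set reads was not looked up. CL+CX livers averaged higher than CL livers at all 4, and none of these 4 differences passed the test.

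**Figure D2:**
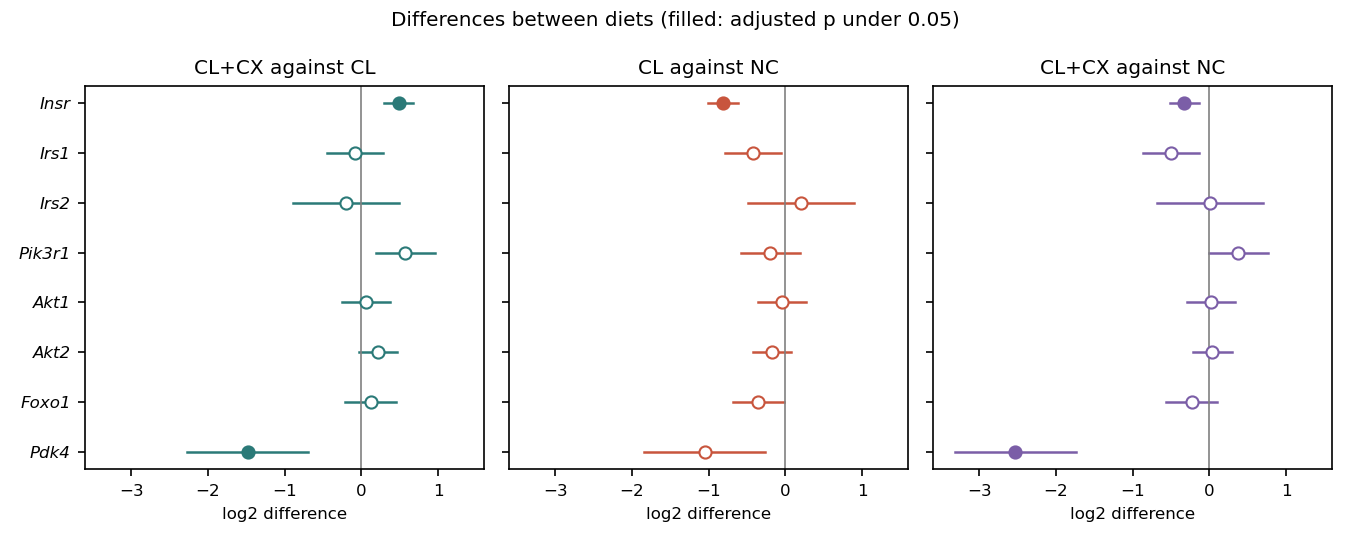
Log2 difference between diets (x axis) of the 8 genes (y axis) in CL+CX against CL, CL against NC and CL+CX against NC, with 95% intervals from limma; filled points passed the test at an adjusted p under 0.05. Insr and Pdk4 hold all the filled points, with Pdk4 at -1.48 and -2.53 against CL and NC.

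The AKT kinases did not pass at any probe set. Akt1 had signals of 124, 129.6, 103, 134 and 131 in CL+CX livers, 98.8, 121, 98.4, 143 and 141 in CL livers, and 137, 148, 99.0, 107 and 127 in NC livers, with wide overlap. Its differences at this probe set had 95% intervals that together spanned -0.35 to 0.37 in the 3 comparisons. A dimmer Akt1 probe set (1425711_a_at) read lower in CL+CX livers, at 32.5 to 40.9, than in CL livers, at 41.4 to 58.9, and than in NC livers, at 42.7 to 50.6. Those groups did not overlap, and the differences of -0.30 from CL (adjusted p = 0.174) and -0.35 from NC (adjusted p = 0.0774) missed the threshold. The third tested Akt1 probe set (1440950_at) differed by -0.05 to 0.02 between diets with an SE of 0.31, and the remaining one (1442759_at) was below the array median in all 15 livers.

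Akt2, the main AKT of insulin-stimulated glucose handling, read 143, 167, 209.8, 187 and 165 in CL+CX livers, 158, 146, 134, 148 and 159.6 in CL livers, and 174, 161, 168, 148 and 192 in NC livers. CL livers lay at the low side, and both neighbours overlapped them. The differences were 0.22 for CL+CX against CL (-0.03 to 0.46, adjusted p = 0.330) and -0.17 for CL against NC (-0.42 to 0.07, adjusted p = 0.369). The other Akt2 probe sets gave -0.45 (1421324_a_at, adjusted p = 0.182) and -0.80 (1455703_at, adjusted p = 0.167) in CL against NC. Averaged over its 3 probe sets, Akt2 passed in CL against NC, at -0.47 (SE 0.14, adjusted p = 0.0303). The brightest, which stands for the gene, gave the smallest difference and did not pass. The others were dim, and each had a CL liver well below the rest of its diet. At 1421324_a_at this was CL replicate 2 (14.4, the others 28.7 to 33.3). At 1455703_at it was CL replicate 5 (4.34, the others 14.5 to 22.8), there below the array median. The part of these livers in the average was not tested.

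Foxo1, the forkhead factor that AKT keeps out of the nucleus, read 171, 159.9, 190.2, 189 and 164 in CL+CX livers, 156, 202, 163, 119 and 172 in CL livers, and 196, 280.3, 157, 201 and 204 in NC livers. NC livers were mostly higher, and each diet overlapped the others. In CL against NC its 3 tested probe sets gave -0.35 (1416983_s_at, adjusted p = 0.164), -0.29 (1416981_at, adjusted p = 0.224) and -0.37 (1416982_at, adjusted p = 0.0772), all short of the threshold. Between CL+CX and CL livers they gave 0.12, 0.25 and -0.03 (adjusted p = 0.716, 0.379 and 0.920). At 1416982_at CL+CX was also at -0.40 against NC (adjusted p = 0.0615). The remaining probe set (1456529_at) was below the array median in every liver. Transcript level says nothing of where the FOXO1 protein lies or of its phosphorylation, which were not measured here.

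**Figure D3:**
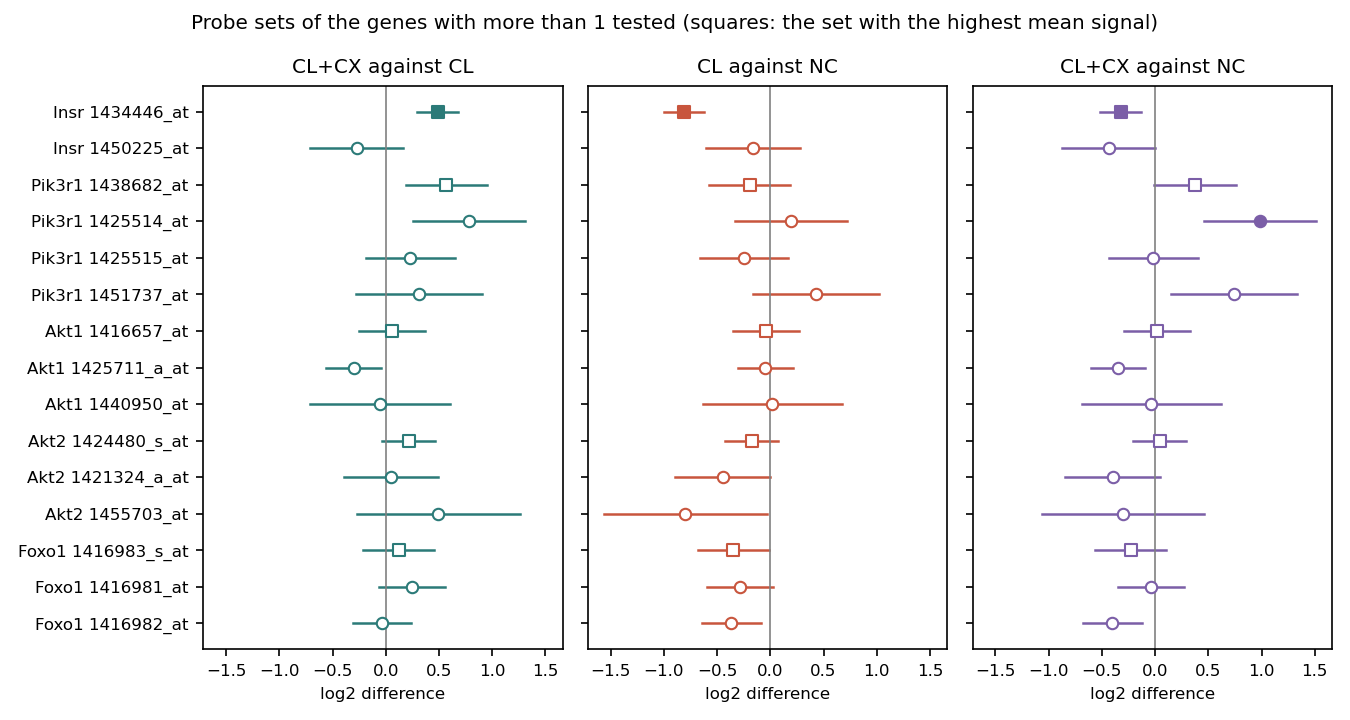
Log2 difference between diets (x axis) with 95% intervals at the 15 tested probe sets of the 5 genes that have more than 1 (y axis); squares stand for the gene and filled symbols passed the test. The 2 Insr probe sets differ in sign in CL+CX against CL (0.49 and -0.27), and the 4 of Pik3r1 lie on the positive side there (0.23 to 0.79).

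Pdk4, the pyruvate dehydrogenase kinase, had signals of 39.8, 41.3, 36.3, 62.8 and 43.2 in CL+CX livers, 152, 97.7, 74.2, 319 and 78.4 in CL livers, and 263, 125, 260.0, 280.3 and 438 in NC livers. CL+CX livers were low and close together. CL livers ran through a wide range that reached into NC, with 1 CL liver above 4 of the 5 NC livers. CL+CX lay below CL by a log2 difference of -1.48 (SE 0.37, adjusted p = 0.0428), a 2.79-fold lower signal, with no overlap. Against NC it was 5.78-fold lower (-2.53, SE 0.37, adjusted p = 0.00111). CL against NC was -1.05 (95% interval -1.84 to -0.26, adjusted p = 0.0775) and did not pass, so from the lowest the order was CL+CX, CL, NC, and CL did not differ from NC past the threshold. Without CL replicate 4, the CL liver at 319, CL against NC passed at -1.40 (adjusted p = 0.0119) and CL+CX against CL did not, at -1.13 (adjusted p = 0.0699). Leaving out NC replicate 2 also let CL against NC pass (-1.31, adjusted p = 0.0328). The call in CL+CX against CL held without NC replicates 2 or 5 or CL replicates 3 or 5 and was lost without any 1 of the other 11 mice (-1.61 to -1.13, adjusted p = 0.0521 to 0.112), as it was with quantile normalization (adjusted p = 0.0503), no filter (adjusted p = 0.170) or a fit of these diets alone (adjusted p = 0.0671). In CL+CX against NC, Pdk4 passed without any 1 mouse (-2.79 to -2.33).

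The variation of Pdk4 within diets, 0.65 on the log2 scale, exceeded that of 94.95% of the genes tested, and most of it lay in CL (SD 0.87) and NC (0.65) rather than in CL+CX livers (0.30). Igfbp1, a secreted binding protein that FOXO1 induces and insulin represses, moved in the same comparison: it read 438 to 1109.8 in CL+CX, 1178 to 3448 in CL and 1136 to 4142 in NC livers, with a log2 difference of -1.76 in CL+CX against CL (SE 0.38, adjusted p = 0.0260). It belongs to a list drawn up for FOXO1 targets, of which 19 genes were tested. Of these, 3 were lower in CL+CX against CL and 0 higher, with a median of -0.07. Within diets Pdk4 and Igfbp1 varied together only loosely over the 15 livers (r 0.26, rho 0.24, as a description).

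CL+CX livers also stood apart in clock genes, which cycle over the day and many of which do so strongly in liver. Dbp, an output gene of the clock, read 575 to 728 in CL+CX livers, 21.1 to 76.4 in CL livers and 36.5 to 76.1 in NC livers (4.12 in CL+CX against CL, SE 0.26, adjusted p = 1.32e-06). Arntl, which encodes the clock factor BMAL1, read 16.4 to 42.4 in CL+CX, 61.9 to 116 in CL and 106 to 139 in NC livers (-1.58, SE 0.23, adjusted p = 0.00447). Of 17 clock genes tested, 8 were higher and 4 lower in CL+CX against CL. CL against NC had 1 higher and 2 lower, and CL+CX against NC 8 higher and 3 lower. Some of these genes entered the test through 1 diet alone. Ciart lay below the array median in all 5 CL and all 5 NC livers, Nr1d1 in 3 and 3 and Per3 in 2 and 1, and they were higher in CL+CX against CL. Npas2, the one gene higher in CL against NC, lay below it in all 5 CL+CX and all 5 NC livers. For such genes the filter favoured the direction that was counted. Within diets, Pdk4 had r -0.31 with Dbp (rho 0.05) and -0.06 with Arntl (rho -0.24). The part of the hour of killing, of feeding before it, or of the clock genes in the Pdk4 difference was not tested.

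**Figure D4:**
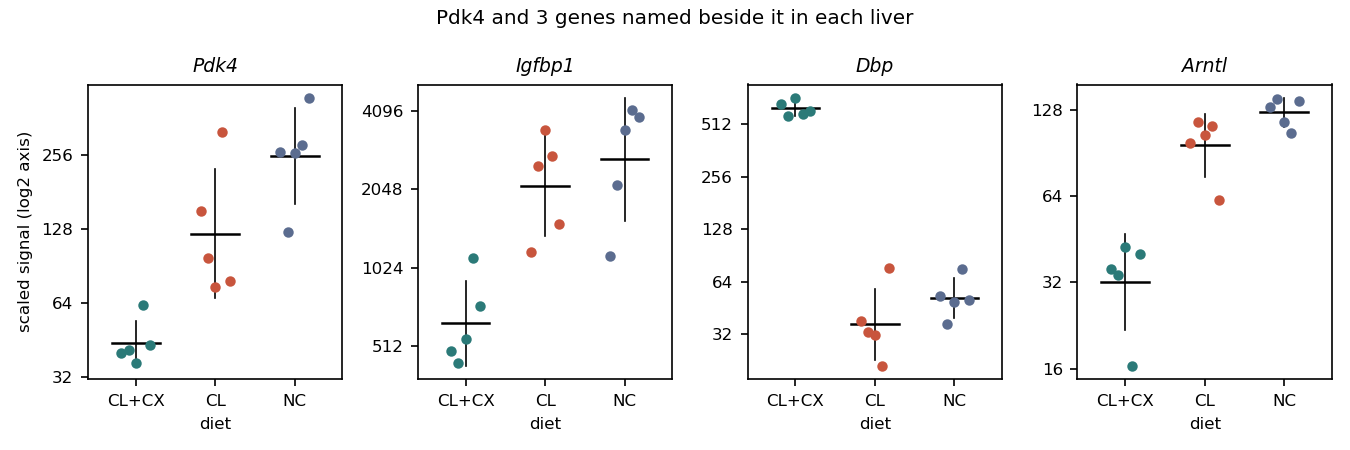
Scaled signal on a log2 axis of Pdk4, Igfbp1, Dbp and Arntl in each of the CL+CX, CL and NC livers (points; horizontal line, mean of log2; vertical line, ±1 SD of log2). Pdk4, Igfbp1 and Arntl are lowest in CL+CX livers, and Dbp is there at 575 to 728, above every CL and NC liver.

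Genes around the members were counted by pathway step. Of 10 tested genes of the insulin receptor family and its adaptors, 1 was higher and 2 lower in CL against NC. Grb2, the adaptor that links receptors to the RAS pathway, was higher by 0.48 (adjusted p = 0.0161) and, in CL+CX against CL, the one gene of the list to pass (-0.55, adjusted p = 0.0261). Gab1, a docking protein like the IRS proteins, and Sos1, a RAS activator, were lower in CL against NC (-0.62, adjusted p = 0.0445, and -0.57, adjusted p = 0.0203). The median difference of the 10 genes was -0.02 for CL against NC, and 0.20 for CL+CX against CL.

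Downstream of the receptor, 4 of 24 tested kinases and regulators of the PI3K, AKT and mTOR steps were lower in CL against NC and none was higher. They were Foxo3, a relative of Foxo1 (-0.79, adjusted p = 0.0127), Tsc2, a brake on mTOR (-0.63, adjusted p = 0.00474), the catalytic subunit gene Pik3ca (-0.36, adjusted p = 0.0266) and Mapkap1, a part of the mTOR complex that phosphorylates AKT (-0.31, adjusted p = 0.0449). Tsc2 was the one to pass in CL+CX against CL (0.61, adjusted p = 0.0226). With Fetub, a liver-secreted relative of fetuin-A, at -0.77 in CL against NC (adjusted p = 0.00342), 1 of 25 tested brakes on insulin signalling passed there, and none in CL+CX against CL. The phosphatase gene Ptpn1 (0.24, adjusted p = 0.262) and Socs3, a feedback inhibitor (1.15, adjusted p = 0.152), did not pass in CL against NC and are named after their values were seen.

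Around Pdk4, 1 of 11 tested genes of pyruvate dehydrogenase and its regulators passed. This was Pdp2, the phosphatase that undoes the action of the PDK kinases, with -0.74 in CL against NC (adjusted p = 0.0136) and 0.78 for CL+CX against CL (adjusted p = 0.0314). Its mean signal was 115 in CL+CX, 68.0 in CL and 113 in NC livers. Pdk1 and Pdk2, the other tested kinases of the complex, were at 0.43 and 0.42 in CL+CX against CL (adjusted p = 0.198 and 0.122) and did not pass in either comparison; they are named after their values were seen. Of the 3 kinase genes of the complex that were tested, Pdk4 alone passed in CL+CX against CL, and its difference from the others was not tested.

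The list drawn up for FOXO1 targets of liver also held Angptl8, which insulin induces, so not all of it is driven by FOXO1. Of its 19 tested genes, 3 were lower in CL against NC, and 3 others were lower in CL+CX against CL. In CL against NC these were the coactivator gene Ppargc1a (-1.33, adjusted p = 0.000757), the tyrosine-degrading Tat (-1.07, adjusted p = 0.0125) and Pck1, which encodes a key enzyme of glucose production (-0.51, adjusted p = 0.00749). Those of CL+CX against CL were the cell cycle inhibitor Cdkn1a (-1.99, adjusted p = 0.0100), Igfbp1 and the repressor Bcl6 (-1.71, adjusted p = 0.0353). G6pc, the last enzyme of glucose production, did not pass (-0.53 in CL against NC, adjusted p = 0.271, and -0.31 in CL+CX against CL, adjusted p = 0.617; named after its values were seen). The median over the 19 was -0.19 for CL against NC, and -0.07 for CL+CX against CL. In CL+CX against NC, 6 of the 19 were lower and none higher, with a median of -0.16.

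A list drawn up for lipogenic genes that insulin induces was not made up of these alone, as it also held Insig1 and Insig2. Among its 14 tested genes, 2 were higher and 3 lower in CL against NC, and 1 was higher in CL+CX against CL. Srebf1, whose product drives this set under insulin, was higher by 0.83 (adjusted p = 0.0115) and the desaturase gene Scd1 by 0.51 (adjusted p = 0.0253). Me1, which makes NADPH for fatty acid synthesis, was lower (-1.35, adjusted p = 0.000166), as were Acacb (-1.31, adjusted p = 0.00474) and Insig1, a brake on SREBP processing (-0.87, adjusted p = 0.0250). Acaca, the first committed enzyme of fatty acid synthesis, was higher in CL+CX against CL (0.72, adjusted p = 0.0400). In CL+CX against NC, 5 of the 14 were higher and 2 lower, with a median of 0.22.

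Other known inducers of Pdk4 were represented by their targets. Of 16 tested PPARα targets, the list holding Ppara itself, 5 were lower in CL against NC and none higher: Acot3 (-1.64), Ppara (-0.61), Cpt1a, the gate of mitochondrial fatty acid oxidation (-0.59), Hadha (-0.55) and Cyp4a14 (-0.50), with adjusted p of 0.00263 to 0.0254. Ppara was the one to pass in CL+CX against CL, where it was higher (0.44, adjusted p = 0.0428). The part of PPARα or of glucocorticoids in the Pdk4 difference was not tested. Of 14 tested genes that glucocorticoids induce in liver, the list also holding their receptor gene Nr3c1, 2 were lower in CL against NC. These were Tat and the transcription factor gene Klf9 (-0.63, adjusted p = 0.00389). Tat is also counted among the FOXO1 targets and the hepatocyte markers, so these counts are not separate. With β-cryptoxanthin Ddit4, an mTOR inhibitor, was lower than in CL livers (-1.35, adjusted p = 0.0390) and Klf9 higher (0.56, adjusted p = 0.0278). Against NC, CL+CX livers were lower in 4 of the 16 PPARα targets (median -0.25) and in 5 of the 14 glucocorticoid-induced genes (median -0.61), and higher in none of either list. Of the lists nearer the members, 2 of the 24 kinases and regulators were lower in that comparison, 1 of the 25 brakes was higher and 1 lower, and no gene of the receptor family and adaptors or of pyruvate dehydrogenase and its regulators passed.

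Other measures moved with the diets beside these genes. All 12 tested macrophage and Kupffer cell markers of 13 listed were higher in CL against NC and 6 were lower in CL+CX against CL. Their mean log2 signal per liver was 7.38 to 8.46 in CL+CX, 8.67 to 9.31 in CL and 6.28 to 7.51 in NC livers. Of 10 hepatocyte markers, 2 were lower in CL against NC (Tat, and Hnf4a at -0.56) and none passed in CL+CX against CL, with a mean log2 signal of 12.2 to 12.4 in CL+CX, 11.9 to 12.7 in CL and 12.5 to 12.9 in NC livers. Of 9 tested stellate cell and fibroblast markers, the matrix gene Dcn alone passed, at 0.67 in CL against NC (adjusted p = 0.00291) and -0.51 in CL+CX against CL (adjusted p = 0.0388), with the mean log2 signal of the list at 6.74 to 7.38 in CL+CX, 6.70 to 8.10 in CL and 6.30 to 7.24 in NC livers. Of 10 sinusoidal endothelial markers, none passed in CL against NC, 2 were lower in CL+CX against NC and Clec4g was lower in CL+CX against CL (-0.83, adjusted p = 0.0349), with the list at 5.90 to 6.97 in CL+CX, 6.69 to 7.05 in CL and 6.75 to 6.99 in NC livers. The one bile duct marker tested, Sox9, was lower in CL+CX against CL (-1.13, adjusted p = 0.0141), and the one T and B cell marker tested, Cd3g, was higher in CL against NC (1.01, adjusted p = 0.0453). Both were dim, with mean signals for Sox9 of 12.7 in CL+CX, 28.2 in CL and 20.2 in NC livers and for Cd3g of 11.8, 16.3 and 8.98 in the same order. Cd3g lay below the array median in 3 CL+CX and 4 NC livers. It entered the test through CL livers alone, so the filter favoured a higher Cd3g there. The one pancreatic marker tested did not pass in any comparison, and no adipocyte or skeletal muscle marker passed the filter. The 3′ over 5′ log2 difference of β-actin, a measure of RNA quality, was 1.07 ± 0.10 in CL+CX, 0.82 ± 0.10 in CL and 0.94 ± 0.09 in NC livers (SD, n = 5 each), with an exact two-sided permutation p of 0.00794 for CL+CX against CL, the smallest possible (0.0238 adjusted over the 3 comparisons). CL replicate 2 correlated with the other CL arrays at a mean r of 0.941, where the other 14 arrays had 0.957 to 0.972 within their diets. With that β-actin measure as a covariate in limma, CL+CX against CL was 0.48 for Insr (adjusted p = 0.715) and -1.73 for Pdk4 (adjusted p = 0.773), so neither passed, and of the differences from NC the Insr call in CL was kept (-0.81, adjusted p = 0.00108), the Insr call in CL+CX was lost (-0.33, adjusted p = 0.118) and the Pdk4 call in CL+CX was kept (-2.67, adjusted p = 0.00912). With the signals as deposited, before scaling, all 3 Insr calls were lost: the difference was 0.42 in CL+CX against CL (adjusted p = 0.304), -0.50 for CL against NC (adjusted p = 0.0718) and -0.08 for CL+CX against NC (adjusted p = 0.805), and its SE was 0.17. That of Pdk4 in CL+CX against CL was lost at a difference of -1.55 (SE 0.39, adjusted p = 0.0870). The part of the cell type markers in the Insr and Pdk4 differences was not tested.

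Within diets, the members did not vary as a block. Over the 28 pairs of the 8 genes, Pearson's r of the deviations from diet means in the 15 livers ran between -0.65 and 0.57 and was above 0 in 15 pairs. None passed after Benjamini-Hochberg adjustment over the 28 pairs in a permutation test within diets with 100000 resamples (lowest adjusted p = 0.785). The strongest, Foxo1 with Pdk4, had r -0.65 (unadjusted p = 0.0390), rho -0.56 (p = 0.0492) and r -0.22 without the 2 livers farthest from the Foxo1 median. Of all 10520 other genes tested, those whose deviations over the 15 livers were most like Insr were Stat5b, Tnks1bp1, Epas1 and Atrnl1 (r 0.90 to 0.92). For Irs2 they were Epha2, Ddx39b, Tor3a and Mon1b (0.85 to 0.88), for Foxo1 Capn8, Scand1, Hc and Abhd12 (0.83 to 0.89), and for Pdk4 Spon2, Col16a1, Tcirg1 and Kmt2a (0.82 to 0.83). They are named as the highest of many correlations over few livers.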

How the data were processed

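Liver RNA of 15 mice was hybridised to 1 Affymetrix mouse genome GeneChip each, and the authors summarised the scans as MAS5 signals. The deposited values are linear intensity. The 75th percentile differed from array to array (41.5 to 78.99), so the percentile scaling of the methods is not in them. Arrays were multiplied to give each the same 75th percentile, 54.1. Values below 1 (11.3% of the total) were set to 1 before log2. A probe set was tested if its signal reached the median of the array (9.48 to 16.7 before scaling) on all 5 arrays of at least 1 diet (20342 did), a filter that stands in for the Present calls of the methods, which were not used here. Signals near the median are measured with little precision, and the number of arrays limits the precision of all values.

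Symbols came from the platform annotation table (34958 probe sets with 1 symbol, 932 with several and 9160 with none), and no probe set with several symbols named a member. One limma model (version 3.58.1, R 4.3.3) held the means of the 3 diets, and the Benjamini-Hochberg adjustment covered the 20342 probe sets. The fit was tested on simulated data with changes put in. Mice of 1 diet are separate animals. No pairing of mice by replicate number is stated, so the main fit has no block for it. Deviations of same-numbered mice correlated at -0.13 to 0.14 and passed 0.1 in 1 pair alone. These values show no strong shared effect and cannot settle whether mice were paired. Within-diet correlations used Python 3.11.15 with numpy 2.4.6, and figures matplotlib 3.10.9. Motifs were matched in RefSeq promoters of GRCm38.p6.

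The members and gene lists were chosen with earlier results of these data known. Genes named besides the members are up to 5 of each list that passed with the largest change between CL and NC, and as many between CL+CX and CL, the 4 genes most like Insr, Irs2, Foxo1 and Pdk4, and Dbp, Arntl and Igfbp1, with others marked. Alternatives were quantile normalization, the signals as deposited, no filter or a stricter one, 16 added to every signal instead of the floor, limma with a trend and a robust prior, the methods' test, only the compared diets, the replicate number as a block, a β-actin 3′ to 5′ covariate, the mean of a gene's tested probe sets, and each mouse left out in turn.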

Additional observations from a re-analysis of the deposited data

Results flagged for a closer look

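In 10 of the 54 groups of 5 livers examined for the 18 tested probe sets, 1 liver stood out by Dixon's ratio, computed on log2 signals. There it stood farther from its neighbour than the 95% critical value of 0.71 allows, where chance gives about 1 in 20. The signals given below are linear, and on that scale the list of livers would differ. CL replicate 2 was the liver in 4 of them: it was lowest for Insr (262, the other CL livers 298 to 314), for Akt2 at 1421324_a_at (14.4, the others 28.7 to 33.3) and for Foxo1 at 1416982_at (65.0, the others 74.4 to 77.98), and highest for Akt1 at 1425711_a_at (58.9, the others 41.4 to 45.3). This is also the array that correlated least with its own diet, and without it Insr was at 0.44 in CL+CX against CL and at -0.77 in CL against NC. CL replicate 5 was lowest for Akt2 at 1455703_at (4.34, the others 14.5 to 22.8). Among CL+CX livers, replicate 4 was lowest for Pik3r1 at 1425515_at (54.2, the others 75.3 to 82.3), replicate 3 for Akt1 at 1416657_at (103, the others 124 to 134) and replicate 2 for Akt1 at 1440950_at (17.7, the others 36.2 to 43.3). Among NC livers, replicate 3 was lowest for Pik3r1 at 1451737_at (12.6, the others 29.5 to 40.0) and replicate 2 highest for Foxo1 at 1416981_at (187, the others 129.9 to 142).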

How the results depend on the processing

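Of 621 values of the 8 genes under 26 settings, 543 kept their direction and side of the threshold, 36 lost and 8 gained a call, and 34 turned sign, all of genes that had not passed. In CL against NC, the number of genes that passed (1) was 0 with the signals as deposited, where Insr had -0.50 (adjusted p = 0.0718), and 2 with the stricter filter, with the offset of 16 (both adding Pdk4) and with the mean of a gene's probe sets (Insr and Akt2), and 1 to 2 without 1 mouse. For CL+CX against CL the number (2) was 0 with no filter, the signals as deposited, the 2 diets alone or the β-actin covariate, and 1 with quantile normalization (Insr) or the mean of probe sets (Pdk4), and 0 to 3 without 1 mouse. For CL+CX against NC it was 1 (Pdk4) instead of 2 with no filter, the signals as deposited, quantile normalization, the replicate block or the β-actin covariate, 3 with the stricter filter or the trend and robust prior (both adding Irs1), and 1 to 2 without 1 mouse. Where Insr or Pdk4 lost the call in CL+CX against CL, the difference was 0.11 to 0.49 for Insr and -1.73 to -1.13 for Pdk4. Over all probe sets the number that passed in CL+CX against CL was 637, against 38 with no filter, 81 with the signals as deposited, 142 with the 2 diets alone, 1 with the β-actin covariate, which itself differs between these diets, 366 with the replicate block, 995 with the offset, 975 with the methods' test and 106 to 969 without 1 mouse (106 without CL+CX replicate 3, 969 without CL replicate 5). In CL against NC it was 2491, against 1127 with no filter, 1139 with the β-actin covariate, 1584 with the methods' test and 3842 without CL replicate 2, and in CL+CX against NC 1991, against 605 with no filter, 663 with the covariate, 3202 with the 2 diets alone, 3055 without CL replicate 2 and 1203 without NC replicate 1. As a pairing, the replicate block ended the Insr call in CL+CX against NC (adjusted p = 0.0690) and no other call of the 8 genes. No pairing by these numbers is stated. The median of all probe sets in CL against NC was 0.23 with the signals as deposited and -0.09 after scaling, and 96.2% of calls were higher there, against 48.2% in scaled signals; in CL+CX against CL the shares were 28.4% and 50.5%, and in CL+CX against NC 90.3% and 49.1%. Signs turned in CL against NC for Pik3r1 (0.12), Akt1 (0.27) and Akt2 (0.14) with the signals as deposited, for Akt1 with quantile normalization (0.0035) and the covariate (0.019), and for Pik3r1 with the mean of probe sets (0.045). Between CL+CX and CL they turned for Akt1 with the signals as deposited (-0.012), the covariate (-0.071) and the mean of probe sets (-0.10), and for Irs2 with the covariate (0.042). Between CL+CX and NC they turned for Foxo1 with the signals as deposited (0.018), Irs2 with the offset (-0.0032), Akt1 with the covariate (-0.052) and the mean of probe sets (-0.12), and Akt2 with both (-0.036 and -0.22). Without 1 mouse, signs also turned for Irs2 (-0.045 to 0.43 in CL against NC, -0.42 to 0.053 in CL+CX against CL, -0.17 to 0.12 in CL+CX against NC), Akt1 (-0.12 to 0.028 in CL against NC, -0.0092 to 0.13 in CL+CX against CL, -0.058 to 0.086 in CL+CX against NC) and Akt2 in CL+CX against NC (-0.028 to 0.11). The cause of these differences was not tested.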
